A study of Mus musculus with 32 samples.

Results

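Ceruloplasmin and 8 other genes of iron handling were followed across 32 polyadenylated RNA libraries from mouse brain. The genes were Cp, Slc40a1, Fth1, Ftl1, Slc11a1, Slc11a2, Hmox1, Trf and Tfrc, 9 of the 24411 genes counted. They were picked after Cp had been seen to be far higher in sorted microglia of one line than of the other. The level of Cp in sorted cells is therefore a description here and carries no test. All mice were C57BL/6 and carried the RPL22-HA allele (RiboTag), which puts a haemagglutinin (HA) tag on ribosomes of cells in which Cre has been active. Of the 8 mice, 4 carried Sall1-CreER and 4 carried Cx3cr1-CreER. Each received tamoxifen by gavage, 4 doses of 5 mg on alternate days, at 4 to 6 weeks of age. The promoter that drives Cre sets which cells are tagged, so HA libraries report the cells recombined in each line and not a fixed cell type. Every brain gave 4 libraries, hence 8 groups of 4. HA is anti-HA precipitation from brain homogenate, SortIP is anti-HA precipitation from sorted microglia, Sort is sorted microglia without precipitation, and IgG is precipitation of homogenate with an isotype antibody. For 8 sorted Cx3cr1 libraries the titles and the descriptions name Sort and SortIP the opposite way round. They are grouped by title below, and values by description are given where a call, a direction or the size of a named result depends on them.

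Depth ranged from 249881 to 4047465 gene counts per library, with 1894943 to 3027342 in Sall1 HA and 286418 to 574671 in Cx3cr1 HA. A list of 16 microglia genes took 6.2 to 9.23% of gene counts in sorted libraries, against 0.0888 to 0.144% in IgG, and all 16 were detected in every group. The same list took 0.506 to 0.635% in Sall1 HA and 7.50 to 8.84% in Cx3cr1 HA. In Sall1 HA, 12 astrocyte genes took 0.878 to 1.12% and 10 oligodendrocyte genes took 1.01 to 1.23%, against 0.346 to 0.363% and 0.434 to 0.557% in Sall1 IgG. The Sall1 HA libraries thus held markers of several brain cell types above the isotype level. Levels below are counts per 1e6 gene counts (CPM), listed by mouse (7, 9, 17 and 21 for Sall1, 1 to 4 for Cx3cr1). Means are given ± SD with n = 4, and log2 fold changes ± SE. Fold changes are additionally scaled by trimmed means of M values (TMM), so they can differ from a ratio of CPM. Adjusted p values come from the quasi-likelihood test of edgeR, by the Benjamini-Hochberg method over all genes tested, and a gene passed where this value was under 0.05.

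Iron leaves cells through ferroportin, encoded by Slc40a1, and is oxidised outside by the copper enzyme ceruloplasmin, encoded by Cp, before transferrin binds it. Transferrin, encoded by Trf, delivers iron to the transferrin receptor, encoded by Tfrc, and DMT1, encoded by Slc11a2, moves it out of the endosome. NRAMP1, encoded by Slc11a1, transports metal ions across the phagosome membrane of macrophages. Heme oxygenase 1, encoded by Hmox1, frees iron from heme, and ferritin, built of the heavy chain Fth1 and the light chain Ftl1, stores it. In the brain, microglia and oligodendrocytes are known for their ferritin, oligodendrocytes for transferrin, and astrocytes and choroid plexus for ceruloplasmin.

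Several of these mRNAs carry an iron-responsive element, a hairpin that iron regulatory proteins bind when iron is scarce. In a 5′ UTR, binding blocks translation by the ribosome, and in a 3′ UTR it protects the mRNA from decay. A search of GENCODE M21 transcripts (GRCm38, sense strand) looked for the loop CAGTGN preceded by an unpaired C and closed by 5 paired bases. It found such an element in the 5′ UTR of Fth1, Ftl1 and Slc40a1 and 4 elements in the 3′ UTR of Tfrc. An element with a bulge or mismatch within these 5 pairs would be missed, so a gene without a match may still carry one. Of 21877 coding genes, 0.142% held a match in a 5′ UTR and 0.59% in a 3′ UTR. The sites are shown because both ferritin genes passed the test between sorted fractions and Tfrc had the lowest fold change in Sall1 HA over IgG. They lie at chr19:9982735-9982760 (+ strand) for Fth1, chr7:45459779-45459804 (− strand) for Ftl1 and chr1:45925465-45925490 (− strand) for Slc40a1. The Tfrc elements are on the + strand at chr16:32631222-32631247, chr16:32631601-32631626, chr16:32631666-32631691 and chr16:32631713-32631738. Capitals mark the loop.
Fth1 5′ UTR: ctgcttcaaCAGTGCttgaacggaac
Ftl1 5′ UTR: ttgcttcaaCAGTGTttgaacggaac
Slc40a1 5′ UTR: cttcagctaCAGTGTtagctaagttt
Tfrc 3′ UTR, element a: tatcggaagCAGTGCcttccataatt
Tfrc 3′ UTR, element b: tatcgggagCAGTGTcttccataatg
Tfrc 3′ UTR, element c: tatcggagaCAGTGAtctccatatgt
Tfrc 3′ UTR, element d: tatcgggaaCAGTGTttcccataatt

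Cp (chr3:19857054-19892998, + strand, in the table's build mm9) was high in sorted Sall1 microglia and low in every other group. In Sall1 Sort it stood at 227, 199.9, 217 and 237 CPM, against 11, 6.09, 8.50 and 4.43 CPM in Cx3cr1 titled Sort. In Sall1 SortIP it stood at 285, 165, 212 and 184 CPM, against 14.9, 5.36, 9.40 and 4.70 CPM in Cx3cr1 titled SortIP. The lowest of the 8 sorted Sall1 libraries (165 CPM) was far above the highest of the 8 sorted Cx3cr1 libraries (14.9 CPM), whichever way the conflicting labels are read. The ratio of mean levels was 29.3 in Sort and 24.6 in SortIP, with fitted log2 fold changes of 4.71 ± 0.21 and 4.68 ± 0.29. In bulk RNA, such as this, fewer cells of a type and less RNA per cell cannot be told apart.

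The high level of Cp was absent from homogenate of the same Sall1 mice. Cp had 0.528, 0.857, 0.823 and 0.991 CPM in Sall1 HA, which rests on 1, 2, 2 and 3 counts. In Cx3cr1 HA it had 5.22, 0, 2.29 and 0 CPM, or 3, 0, 1 and 0 counts, where a count of 0 allows up to 9.18 and 10.5 CPM. The IgG libraries held 21.3, 5.19, 8.36 and 5.66 CPM in the Sall1 line and 12.3, 2.83, 13.9 and 5.64 CPM in the Cx3cr1 line. All 4 Sall1 HA libraries were thus below all 4 Sall1 IgG libraries, and Cp fell by 2.90 ± 0.57 on the log2 scale in HA (adjusted p = 1.87e-04). Cp met the low-count filter there only through IgG, where it was higher. The filter thus favoured a fall, and the p is descriptive. In the Cx3cr1 line Cp did not pass the low-count filter for HA against IgG. Against SortIP of the same line, Sall1 HA was lower by a log2 fold change of -7.72 ± 0.32. Since the microglia list took less of Sall1 HA than of sorted libraries, Cp was also set against that list. There were 0.144 ± 0.0351 Cp counts per 1000 microglia-list counts in Sall1 HA, 2.45 ± 0.620 in Sall1 SortIP and 3.32 ± 0.225 in Sall1 Sort. The same quantity was 0.0225 ± 0.0286 in Cx3cr1 HA, 0.132 ± 0.0788 in Cx3cr1 titled SortIP and 0.0862 ± 0.0309 in Cx3cr1 titled Sort. By this measure every Sall1 HA library lay below every sorted Sall1 library, and its range (0.0917 to 0.169) overlapped that of Cx3cr1 titled SortIP (0.0701 to 0.240).

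**Figure D1:**
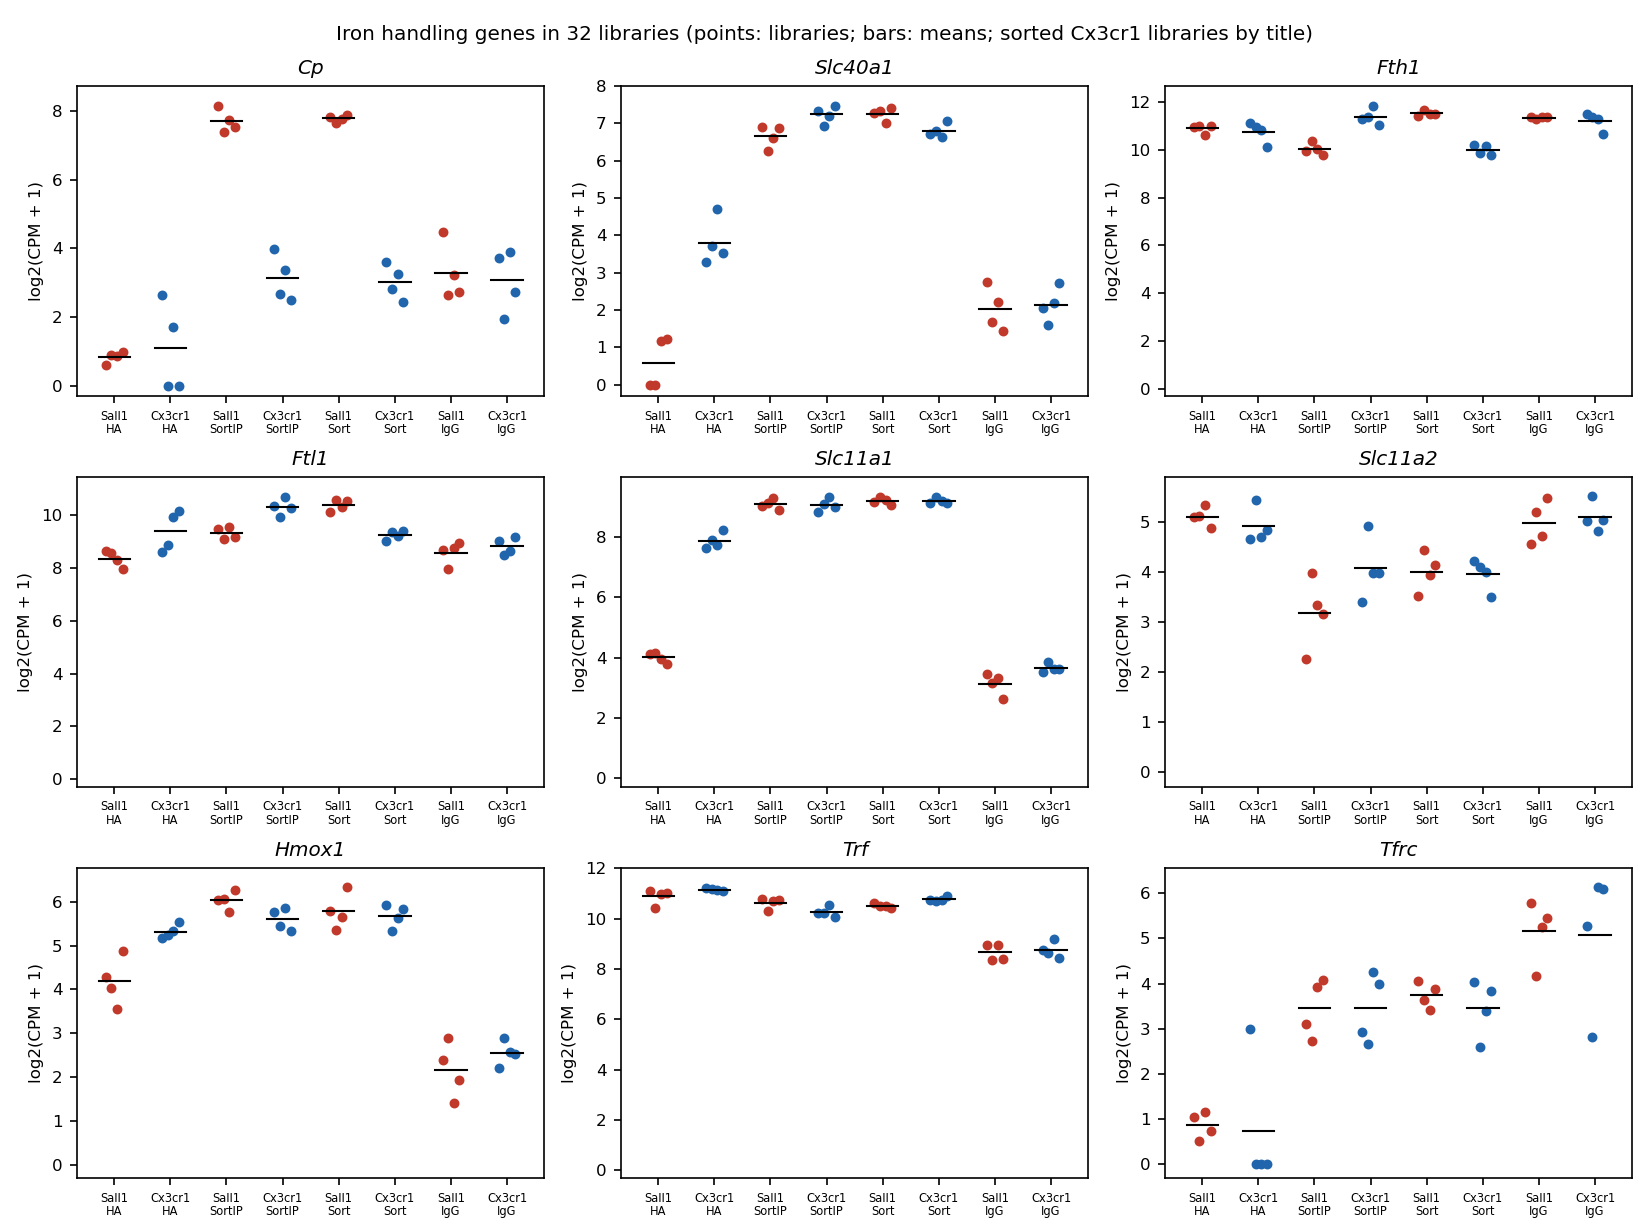
Level of each of the 9 genes in every library, as log2(CPM + 1) on the vertical axis, in 8 groups of 4 libraries along the horizontal axis (red, Sall1 line; blue, Cx3cr1 line; bars, means). Cp stands between 165 and 285 CPM in the 8 sorted Sall1 libraries and at most at 21.3 CPM elsewhere, while Slc11a1 and Hmox1 are high in all sorted groups.

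Markers of other cells that could carry Cp were read in the same libraries. A list of 8 choroid plexus genes took 0.138 to 0.413% of gene counts in Sall1 Sort, against 0.0225 to 0.0601% in Cx3cr1 titled Sort, and 0.0667 to 0.404% in Sall1 SortIP, against 0.0469 to 0.174% in Cx3cr1 titled SortIP. All 8 were detected in the Sall1 sorted groups and 7 of 8 in the Cx3cr1 ones, where Slc4a5 was at 0. Ttr, the transthyretin gene, alone made up 93.5 to 99.3% of the list's counts in every library, so the share is in effect that of 1 gene. In Sall1 HA, where Cp did not exceed 0.991 CPM, the share was 0.269 to 0.403%. Among the Sall1 SortIP libraries, mouse 7 had 285 CPM of Cp at a choroid share of 0.0667%, and mouse 21 had 184 CPM at 0.404%. Border macrophage genes, 9 in all, took 0.0560 to 0.0884% in Sall1 Sort against 0.0334 to 0.0451% in Cx3cr1 titled Sort, and 0.0544 to 0.0718% in Sall1 SortIP against 0.0328 to 0.0418% in Cx3cr1 titled SortIP. In sorted libraries the border macrophage shares did not overlap between the lines. In Cx3cr1 HA, where Cp did not exceed 5.22 CPM (4 counts in all), the share was 0.0632 to 0.0909%. The part of choroid plexus or border macrophage RNA in the level of Cp was not tested. Astrocyte genes took 0.0182 to 0.0472% in sorted Sall1 libraries and 0.0237 to 0.0394% in sorted Cx3cr1 libraries, so these ranges overlapped.

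**Figure D2:**
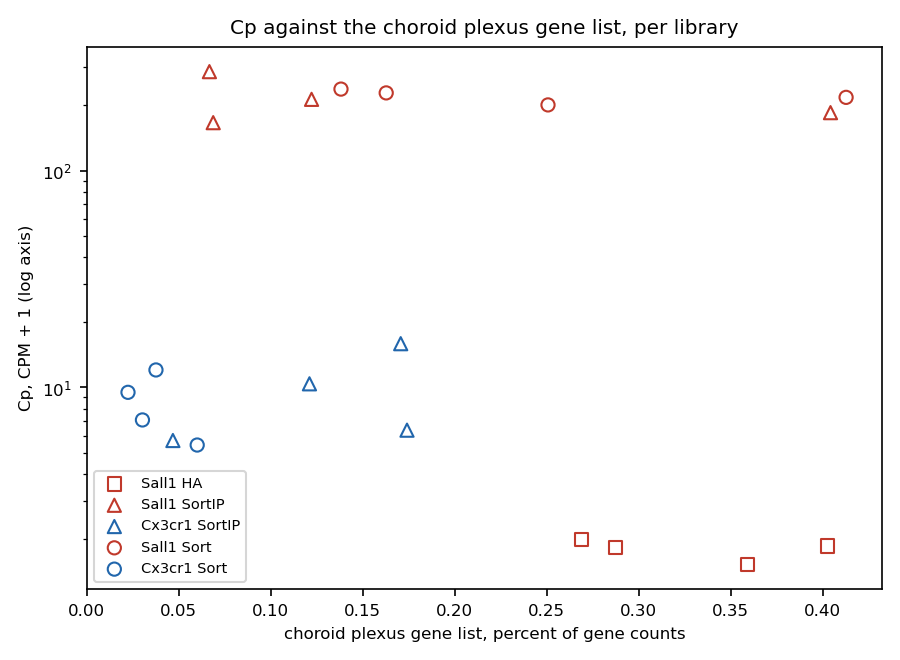
Cp in CPM + 1 (vertical, log axis) against the share of gene counts in 8 choroid plexus genes (horizontal, percent), 1 point per library of Sall1 HA and the sorted groups. Sall1 HA sits at 0.269 to 0.403% with Cp at or below 0.991 CPM, while sorted Sall1 libraries from 0.0667 to 0.413% all lie at 165 CPM or more.

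Over the 32 libraries the genes with the pattern most like Cp, by Pearson's r of log2(CPM + 1), were Ccr1 (0.90), Lpl (0.90), Vcam1 (0.90) and Adgrg5 (0.89). The libraries share mice and fractions, so r is a description. Ccr1, a chemokine receptor gene, averaged 179 ± 21 CPM in Sall1 Sort and 7.04 ± 3.35 CPM in Cx3cr1 titled Sort. Adgrg5, an adhesion G protein-coupled receptor gene, averaged 36.9 ± 2.73 CPM in Sall1 Sort and 1.69 ± 1.11 CPM in Cx3cr1 titled Sort. Vcam1, an adhesion molecule gene, averaged 123 ± 22.2 and 45.7 ± 14 CPM, and Lpl, the lipoprotein lipase gene, 109 ± 31.6 and 31.7 ± 6.55 CPM in the same groups. Over the 16 homogenate libraries alone, r with Cp was 0.21 for Ccr1 and -0.07 for Adgrg5, but 0.71 for Lpl and 0.79 for Vcam1. These r values rest on low counts, as Cp had 8 counts in all over Sall1 HA and 4 over Cx3cr1 HA. Ccr1 and Adgrg5 averaged at most 1.52 and 1.00 CPM in any homogenate group.

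Slc40a1 (chr1:45964915-45982439, − strand, mm9), the iron exporter gene, was abundant in all sorted groups, in contrast to Cp. It stood at 119.7, 75.9, 95.9 and 116 CPM in Sall1 SortIP and 162, 122, 147 and 178 CPM in Cx3cr1 titled SortIP. In Sort it stood at 155, 161, 127 and 171 CPM in the Sall1 line and 104, 109.5, 98.2 and 133 CPM in the Cx3cr1 line. Sall1 SortIP overlapped neither Sall1 Sort nor Cx3cr1 titled SortIP, the other pairs of sorted groups overlapped, and all 16 libraries were above every homogenate library. In homogenate the lines differed: Slc40a1 had 0, 0, 1.23 and 1.32 CPM in the Sall1 HA libraries, against 8.70, 12.2, 25.2 and 10.5 CPM in Cx3cr1 HA, with 7 and 23 counts in all. IgG held 5.68, 2.22, 3.68 and 1.70 CPM in the Sall1 line and 3.18, 2.02, 3.59 and 5.64 CPM in the Cx3cr1 line. Every Cx3cr1 HA library was above every Cx3cr1 IgG library, and every Sall1 HA library was below every Sall1 IgG library. Slc40a1 rose in Cx3cr1 HA over IgG by 2.35 ± 0.47 (adjusted p = 4.46e-04), and failed the low-count filter in Sall1 HA against IgG. Between the lines it was lower in Sall1 HA, with a log2 fold change of -4.34 ± 0.62 (adjusted p = 1.45e-06). Against SortIP it was lower in HA in both lines, by -6.81 ± 0.38 in the Sall1 line (adjusted p = 2.45e-18) and -3.18 ± 0.29 in the Cx3cr1 line (adjusted p = 5.86e-09). In each of these tests Slc40a1 met the count filter only because of the group where it was higher, so the p values are descriptive. Per 1000 microglia-list counts HA held 0.111 ± 0.129 in the Sall1 line and 0.178 ± 0.106 in the Cx3cr1 line, and SortIP held 1.18 ± 0.242 and 2.29 ± 0.424.

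The ferritin genes Fth1 (chr19:10057136-10059601, + strand, mm9) and Ftl1 (chr7:52713314-52715256, − strand, mm9) were abundant everywhere. Per length, Fth1 was the most abundant of the 9 genes in all 8 groups, with mean RPKM between 1111 in Cx3cr1 titled Sort and 3181 in Sall1 Sort. Both ferritin genes together took 0.171 ± 0.0181% of gene counts in Sall1 SortIP and 0.434 ± 0.0413% in Sall1 Sort. Fth1 had 983, 1337, 1032 and 884 CPM in Sall1 SortIP, against 2760.2, 3294, 2931 and 2925 CPM in Sall1 Sort. Ftl1 had 707, 557, 753 and 584 CPM in Sall1 SortIP, against 1109, 1557, 1274 and 1514 CPM in Sall1 Sort. The groups did not overlap for either gene. Fth1 fell by 1.34 ± 0.13 (adjusted p = 3.99e-06) and Ftl1 by 0.92 ± 0.14 (adjusted p = 5.25e-04) on the log2 scale. These were the 2 of 8 members tested that passed, where 10.5% of all genes tested passed (5.45% higher, 5.08% lower). Slc40a1, the other gene with a 5′ UTR element, was lower in SortIP in all 4 mice but did not pass (-0.48 ± 0.18, adjusted p = 0.0874, or -0.62 and adjusted p = 0.0269 without scaling). Tfrc, with its 3′ UTR elements, gave -0.12 ± 0.40 (adjusted p = 0.881). In Slc11a2 the search found no element of this form, which does not exclude one of another form. Slc11a2 was also lower in SortIP in all 4 mice. It did not pass (-0.57 ± 0.39, adjusted p = 0.374), and its groups overlapped.

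In the Cx3cr1 line the same comparison depends on which label is right. By title, Fth1 had 2531, 2641, 3667 and 2114 CPM in SortIP, against 1183, 943, 1156 and 878 CPM in Sort. Ftl1 had 1307, 991, 1674 and 1256 CPM in titled SortIP, against 527, 654, 601 and 682 CPM in titled Sort. By title both genes were higher in SortIP, with 1.27 ± 0.16 (adjusted p = 5.49e-04) for Fth1 and 0.97 ± 0.15 (adjusted p = 7.84e-04) for Ftl1. Trf was lower, with -0.63 ± 0.12 (adjusted p = 0.00385), so 3 of 8 members passed, against 12.8% of all genes tested (6.35% higher, 6.46% lower). By description every sign is exchanged, and the ferritin fold changes become -1.27 and -0.97, the direction of the Sall1 line. The microglia list moved with the same labels: it took 8.25 to 8.99% in Sall1 SortIP and 6.2 to 6.97% in Sall1 Sort, but 6.21 to 6.97% in Cx3cr1 titled SortIP and 8.27 to 9.23% in Cx3cr1 titled Sort. Which label is right cannot be told apart from an opposite response of the Cx3cr1 line. For the same reason Fth1 between lines was 1.41 ± 0.12 in Sort, Sall1 over Cx3cr1, by title but 0.14 by description, and 0.19 when a mouse's SortIP and Sort counts were summed. Ftl1 gave 1.04 ± 0.12 by title, 0.08 by description and 0.12 for the sums. Immediate early genes, a sign of handling, took 0.117 to 0.464% in Sall1 SortIP and 0.178 to 0.635% in Sall1 Sort, and their part was not tested.

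**Figure D3:**
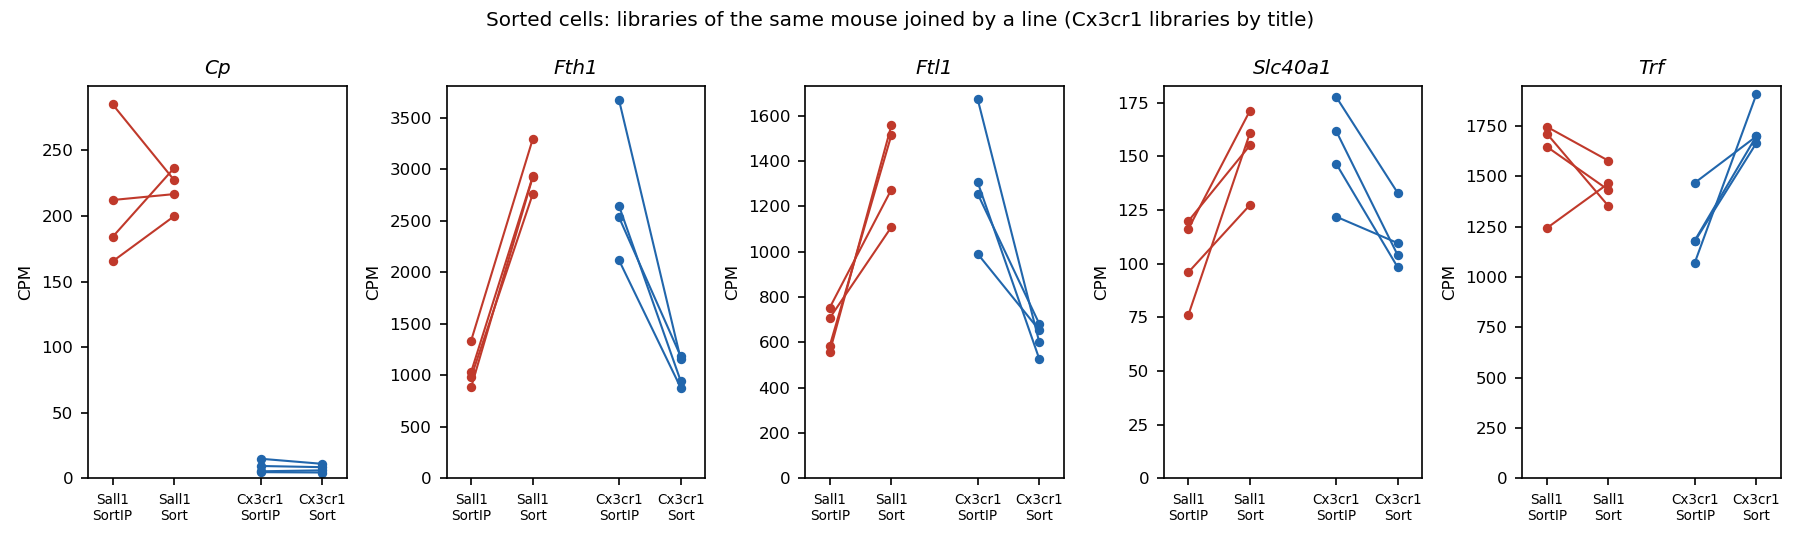
Level in CPM (vertical) of Cp, Fth1, Ftl1, Slc40a1 and Trf in SortIP and Sort of sorted cells (horizontal), with both libraries of a mouse joined by a line (red, Sall1; blue, Cx3cr1 by title). Fth1 lies at 884 to 1337 CPM in Sall1 SortIP and 2760.2 to 3294 CPM in Sall1 Sort, and the Cx3cr1 lines slope the other way with the titles as given, while Cp separates the lines and not the fractions.

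In homogenate, Fth1 did not pass in HA against IgG in either line. Fth1 had 2009, 2037, 1594 and 2018 CPM in the Sall1 HA libraries, against 2678, 2488, 2628 and 2643 CPM in Sall1 IgG. It had 2248, 1991, 1819 and 1124 CPM in Cx3cr1 HA, against 2923, 2679, 2502 and 1637 CPM in Cx3cr1 IgG. Fth1 CPM was lower in HA than in IgG of the same brain in all 4 mice of both lines, although the ranges overlapped in the Cx3cr1 line. After scaling, Fth1 gave -0.05 ± 0.14 in the Sall1 line (adjusted p = 0.784, or -0.45 and adjusted p = 0.00588 without scaling) and -0.03 ± 0.22 in the Cx3cr1 line (adjusted p = 0.918). With an offset for transcript length and the mouse as a block, it was lower in HA, at -1.22 in the Sall1 line (adjusted p = 3.09e-07) and -0.70 in the Cx3cr1 line (adjusted p = 1.88e-04). Fth1 and Ftl1 are the shortest of the 9 transcripts (936 and 964 bases). Ftl1 had 389.8, 471, 991 and 1152 CPM in Cx3cr1 HA, against 523, 360.3, 400.1 and 579 CPM in Cx3cr1 IgG. It passed at 1.08 ± 0.31 (adjusted p = 0.00855), although the groups overlapped. The call was lost without scaling (0.68, adjusted p = 0.0717) and with the length offset and block (0.35, adjusted p = 0.134). Ftl1 had 396, 377, 313 and 247 CPM in the Sall1 HA libraries, against 410.4, 248, 438 and 489 CPM in Sall1 IgG. In Sall1 HA over IgG, Ftl1 gave 0.14 ± 0.21 (adjusted p = 0.553), and -0.97 (adjusted p = 0.00134) with the length offset and block. Ftl1 was lower in Sall1 HA than in Cx3cr1 HA, at -1.36 ± 0.32 (adjusted p = 0.00265), with overlapping groups.

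The number of Ftl1 counts per Fth1 count was 0.175 ± 0.0355 in Sall1 HA and 0.151 ± 0.0367 in Sall1 IgG. It was 0.495 ± 0.389 in Cx3cr1 HA and 0.207 ± 0.0995 in Cx3cr1 IgG, with Cx3cr1 HA libraries spread from 0.173 to 1.02. None of 3 comparisons of the log2 ratio passed an exact two-sided permutation test, for which 0.0286 is the smallest p possible. The exact values were p = 0.457 for Sall1 HA against IgG, p = 0.2 for Cx3cr1 HA against IgG and p = 0.114 for Sall1 HA against Cx3cr1 HA (adjusted 0.457, 0.3 and 0.3). Sorted cells had 0.632 ± 0.146 in Sall1 SortIP, 0.486 ± 0.0926 in Cx3cr1 titled SortIP, 0.457 ± 0.05 in Sall1 Sort and 0.609 ± 0.153 in Cx3cr1 titled Sort. Every sorted library was above every IgG library and every Sall1 HA library in this ratio.

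**Figure D4:**
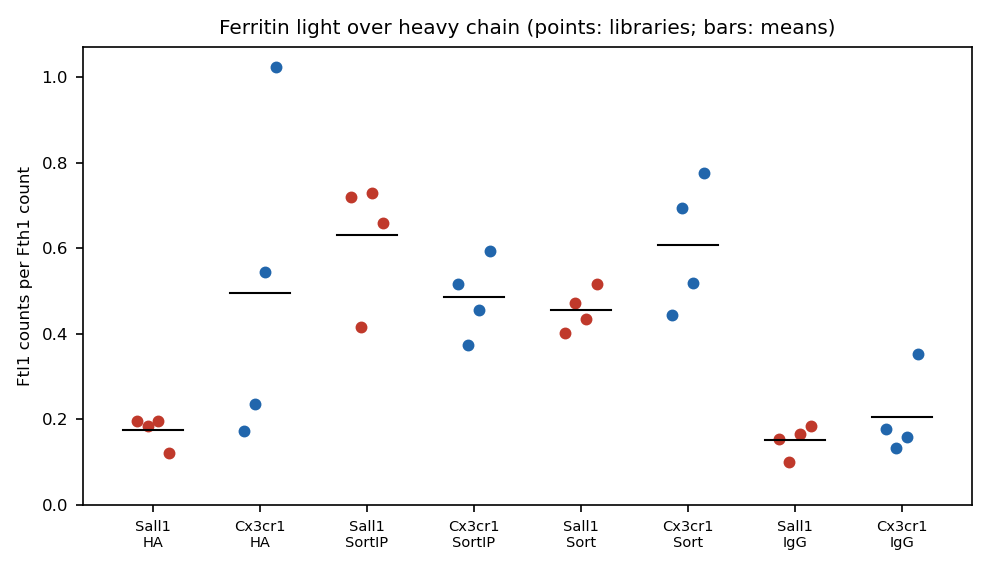
Ftl1 counts per Fth1 count (vertical) in each library of 8 groups (horizontal; red, Sall1; blue, Cx3cr1; bars, means of 4). Sorted libraries lie between 0.375 and 0.776, Sall1 HA at or below 0.197, and Cx3cr1 HA ranges from 0.173 to 1.02.

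Slc11a1 (chr1:74421777-74432625, + strand, mm9), the NRAMP1 gene, was highest in sorted cells and next in Cx3cr1 HA. In sorted cells it stood at 525, 567, 624 and 476 CPM in Sall1 SortIP, 459, 546, 640.2 and 509 CPM in Cx3cr1 titled SortIP, 581, 649, 597 and 532 CPM in Sall1 Sort and 559, 644, 586 and 564 CPM in Cx3cr1 titled Sort. These groups overlapped throughout, unlike those of Cp. In homogenate it had 16.4, 16.7, 14.4 and 12.9 CPM in the Sall1 HA libraries, against 9.94, 7.91, 9.03 and 5.10 CPM in Sall1 IgG. It had 197, 239, 211 and 300.3 CPM in Cx3cr1 HA, against 10.5, 13.4, 11.2 and 11.3 CPM in Cx3cr1 IgG. Neither pair overlapped. Slc11a1 rose in HA by 1.34 ± 0.28 in the Sall1 line (adjusted p = 3.01e-04) and by 4.73 ± 0.23 in the Cx3cr1 line (adjusted p = 5.62e-11). Per 1000 microglia-list counts it had 2.73 ± 0.528 in Sall1 HA and 2.94 ± 0.750 in Cx3cr1 HA, which overlapped although the CPM did not. This was below the 6.35 ± 0.877 of Sall1 SortIP, 8.07 ± 0.943 of Cx3cr1 titled SortIP, 8.92 ± 0.963 of Sall1 Sort and 6.80 ± 0.688 of Cx3cr1 titled Sort, without overlap. The genes most like it over the 32 libraries were Fes, Ptpn6, Nckap1l and Hmha1, with r of 0.996, 0.995, 0.994 and 0.994.

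Slc11a2 (chr15:100223089-100253486, − strand, mm9), the DMT1 gene, ran the other way and was lower in sorted cells than in IgG. It averaged 8.93 ± 4.50 CPM in Sall1 SortIP, 17.2 ± 8.55 CPM in Cx3cr1 titled SortIP, 15.6 ± 4.28 CPM in Sall1 Sort and 14.8 ± 3.18 CPM in Cx3cr1 titled Sort. In homogenate HA averaged 33.7 ± 4.53 CPM in the Sall1 line and 30.1 ± 8.63 CPM in the Cx3cr1 line, against 32 ± 9.67 and 34.1 ± 7.57 CPM in IgG. Sort was below IgG by -1.05 ± 0.29 in the Sall1 line (adjusted p = 0.00247) and -1.14 ± 0.29 in the Cx3cr1 line (adjusted p = 0.00237), with all 4 libraries lower in both. With the length offset and block these were -0.59 (adjusted p = 0.0533, no longer passing) and -0.63 (adjusted p = 0.0489). HA over IgG did not pass, at 0.46 ± 0.22 (adjusted p = 0.0739) and 0.20 ± 0.30 (adjusted p = 0.577). Without HA or IgG of mouse 21 it passed in the Sall1 line, at 0.55 (adjusted p = 0.0459) and 0.61 (adjusted p = 0.0276). With the length offset and block it passed in both lines, at 1.03 (adjusted p = 5.92e-04) and 0.85 (adjusted p = 0.0167). The gene has 47 counts in all over Cx3cr1 HA and 26 over Sall1 SortIP.

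Hmox1 (chr8:77617517-77624492, + strand, mm9), the inducible heme oxygenase gene, rose in HA in both lines. It had 18.5, 15.4, 10.7 and 28.4 CPM in the Sall1 HA libraries, against 4.26, 6.42, 1.67 and 2.83 CPM in Sall1 IgG. It had 34.8, 36.7, 39.0 and 45.4 CPM in Cx3cr1 HA, against 3.63, 6.48, 4.93 and 4.77 CPM in Cx3cr1 IgG. Neither pair overlapped, and the log2 fold changes were 2.64 ± 0.39 (adjusted p = 1.11e-05) and 3.33 ± 0.32 (adjusted p = 1.91e-07). Sall1 HA lay below Cx3cr1 HA by -1.24 ± 0.31 (adjusted p = 0.00136), again without overlap. Without IgG of mouse 9 the Sall1 fold change over IgG was 3.24. In sorted cells Hmox1 spanned 39.1 to 79.2 CPM over all 16 libraries, and SortIP against Sort did not pass in either line (adjusted p = 0.356 for Sall1 and 0.597 for Cx3cr1). Its likest genes were Tmem176b, Tmem37, Dapp1 and Olfml3, with r from 0.965 to 0.966 over 32 libraries.

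Trf (chr9:103111206-103132616, − strand, mm9), the transferrin gene, ranked 2 or 3 of the 9 genes per length in every group. It had 2190.0, 1379.9, 1998 and 2067 CPM in the Sall1 HA libraries, against 493, 327, 500.2 and 339 CPM in Sall1 IgG. It had 2387, 2310, 2246 and 2161 CPM in Cx3cr1 HA, against 429, 391, 586 and 342 CPM in Cx3cr1 IgG. Neither pair overlapped, and Trf rose in HA by 2.61 ± 0.20 (adjusted p = 4.64e-09) in the Sall1 line and by 2.78 ± 0.20 (adjusted p = 5.82e-09) in the Cx3cr1 line. The oligodendrocyte list, all 10 genes of which were detected, took more of Sall1 HA than of Sall1 IgG (above), but 0.149 to 0.216% of Cx3cr1 HA against 0.557 to 0.684% of Cx3cr1 IgG. In sorted cells, where that list took only 0.0127 to 0.0528%, Trf still stood at 1071 to 1907 CPM, above every IgG library. The part of oligodendrocyte RNA in the Sall1 HA level was not tested. Between lines, Trf was lower in Sall1 HA by -0.44 ± 0.16 (adjusted p = 0.0244), a call lost without scaling (-0.25), under DESeq2 (-0.37), without the low-count filter (-0.28) and with all 8 groups in one fit (-0.09). It was also lost when mouse 9 or 17 of Sall1 HA, or mouse 1, 2 or 3 of Cx3cr1 HA was left out (-0.28, -0.43, -0.41, -0.42 and -0.42). Its likest genes were P4hb, Npc2, Mydgf and Rps9, with r from 0.938 to 0.959 over 32 libraries.

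Tfrc (chr16:32608982-32632880, + strand, mm9), the transferrin receptor gene, was near absent from HA. It had 1.06, 0.428, 1.23 and 0.661 CPM in Sall1 HA, which is 8 counts in all, against 54.0, 17, 37.1 and 42.5 CPM in Sall1 IgG. It had 6.96, 0, 0 and 0 CPM in Cx3cr1 HA, which is 4 counts of mouse 1, against 37.7, 6.07, 69.1 and 66.9 CPM in Cx3cr1 IgG. Tfrc fell by 4.97 ± 0.48 in Sall1 HA (adjusted p = 5.51e-08), with no overlap, and did not pass the count filter in the Cx3cr1 line. In the Sall1 line Tfrc met that filter only through IgG, where it was higher. The filter thus favoured a fall, and the p is descriptive. With the length offset and block the Sall1 value was -4.33. In sorted cells Tfrc spanned 5.07 to 18.2 CPM over all 16 libraries. Endothelial genes, another known source of this receptor, took 0.00179 to 0.00313% of Sall1 HA libraries and 0.00245 to 0.00524% of Cx3cr1 HA libraries, against 0.0223 to 0.0559% and 0.0142 to 0.0299% in IgG. In sorted libraries, where Tfrc was at 5.07 to 18.2 CPM, endothelial genes took 0.00105 to 0.00527%. Of the 9 listed, Tek and Slco1a4 were at 0 in Sall1 HA. The part of these cells in the level of Tfrc was not tested.

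Counted over members, HA over IgG passed for 5 of 8 tested in the Sall1 line (Slc11a1, Trf and Hmox1 higher, Cp and Tfrc lower), where 71.3% of all genes tested passed (35.2% higher, 36.1% lower). In the Cx3cr1 line it passed for 5 of 7 tested, all higher (Ftl1, Slc40a1, Slc11a1, Trf and Hmox1), where 64.5% of all genes passed (28.6% higher, 36% lower). The shares that passed in either direction are near the background. Of the members that passed, Cp and Tfrc in the Sall1 line met the count filter only through IgG. Hmox1 in both lines and Slc40a1 in the Cx3cr1 line met it only through HA. The median log2 fold change was 0.30 in the Sall1 line and 2.35 in the Cx3cr1 line, against -0.03 and -0.28 over all genes tested. The difference in HA enrichment between the lines, tested as an interaction, passed for 2 of 9, against 32.2% of all genes (18.5% higher, 13.7% lower). These were Slc40a1 (-3.98 ± 0.88, adjusted p = 0.00103) and Slc11a1 (-3.43 ± 0.32, adjusted p = 1.10e-08), both less enriched in the Sall1 line. Slc40a1 met the count filter of this fit only because of Cx3cr1 HA. Its Sall1 part rests on 7 counts in Sall1 HA and failed the filter when Sall1 HA over IgG was fitted alone. Without HA of Sall1 mouse 21 the value of Slc40a1 was -4.58. Ftl1 did not pass (-0.98 ± 0.42, adjusted p = 0.0842), but did without HA of Cx3cr1 mouse 1 (-1.19) or 2 (-1.13) or IgG of Sall1 mouse 9 (-1.18), under DESeq2 (-1.10, adjusted p = 0.0448) and with the length offset and block (-1.36, adjusted p = 0.0262). Direct comparison of Sall1 HA with Cx3cr1 HA passed for 5 of 7, all lower in Sall1 HA, where 52.9% of all genes passed (27.2% higher, 25.7% lower). These were Slc40a1, Slc11a1, Hmox1, Ftl1 and Trf, and Fth1 and Slc11a2 did not pass. With the length offset, Fth1 passed between HA libraries (-0.47, adjusted p = 0.0253) and, with the block added, in the difference of enrichment (-0.56, adjusted p = 0.0375). Without HA of Sall1 mouse 9 or 17 the count was 3, since Trf was lost and Slc40a1 no longer passed the count filter. The share of all genes that passed without these libraries was not computed. Between the IgG libraries of the lines, 0 of 8 passed in edgeR or DESeq2, and 0 had an unadjusted p under 0.05, where 0.00863% of all genes passed.

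**Figure D5:**
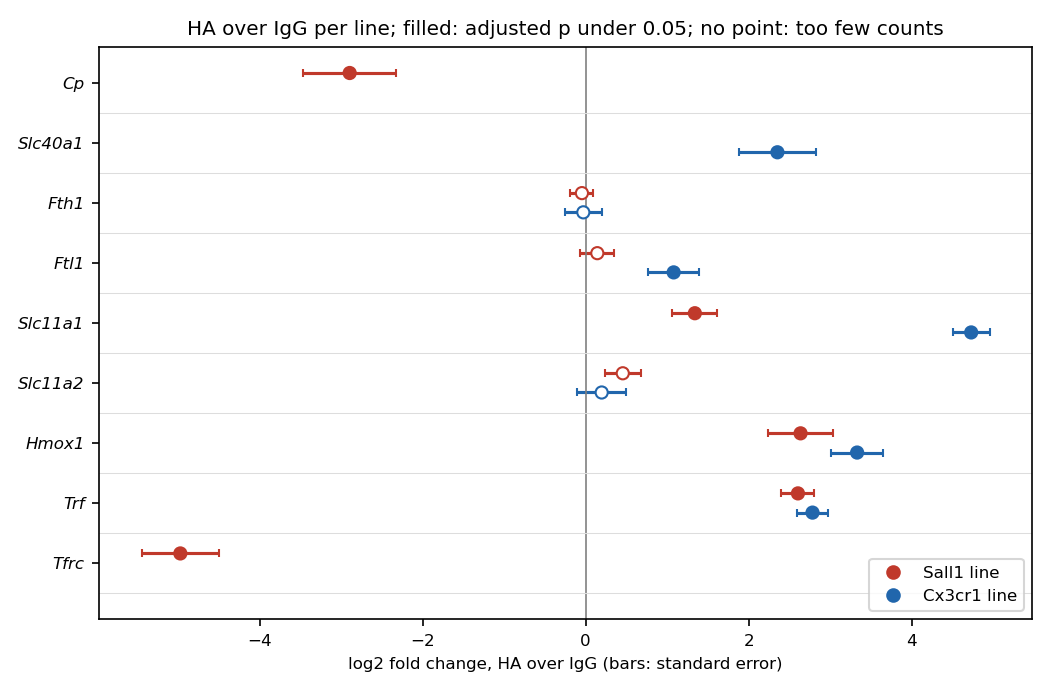
Log2 fold change of HA over IgG (horizontal; bars, SE) for each gene that passed the count filter, with the Sall1 line (red) above the Cx3cr1 line (blue), n = 4 libraries per group. Filled points have an adjusted p under 0.05: Trf lies at 2.61 and 2.78, Hmox1 at 2.64 and 3.33 and Slc11a1 at 1.34 and 4.73 in the Sall1 and Cx3cr1 lines, and the open points of Fth1 lie at -0.05 and -0.03.

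Sall1 HA over SortIP passed for all 7 members tested besides Cp, with Fth1, Slc11a2 and Trf higher and Ftl1, Slc40a1, Slc11a1 and Hmox1 lower, where 80.2% of all genes passed (42.4% higher, 37.8% lower). Slc11a1 gave -5.04 ± 0.21 (adjusted p = 4.48e-22) and Slc11a2 1.93 ± 0.32 (adjusted p = 1.25e-06). With the length offset and block, Fth1 (1.01 ± 0.17) gave 0.02 (adjusted p = 0.928) and Trf (0.43 ± 0.17, adjusted p = 0.0193) gave 0.14 (adjusted p = 0.437). The call of Trf was also lost without HA of mouse 7 or 17 or SortIP of mouse 9 (0.32, 0.39 and 0.28), and without scaling (0.27). Cx3cr1 HA over titled SortIP passed for 4 of 7, where 70.1% of all genes passed (32.6% higher, 37.5% lower). These were Trf (1.13 ± 0.16) and Slc11a2 (1.12 ± 0.35) higher, Slc40a1 and Slc11a1 (-0.96 ± 0.18) lower. With the mouse as a block, Fth1 (-0.39, adjusted p = 0.0325) and Ftl1 (-0.68, adjusted p = 0.00140) passed too, against -0.36 ± 0.21 (adjusted p = 0.137) and -0.59 ± 0.30 (adjusted p = 0.104) without it. Both also passed without scaling, without the low-count filter and with the length offset and block (-0.42 to -0.89 for Fth1, -0.65 to -1.16 for Ftl1), and Ftl1 with all 8 groups in one fit (-0.64) and without HA of mouse 4 (-0.84). By description Fth1 was instead higher in HA, at 0.91 (adjusted p = 1.99e-05), where 68.1% of all genes passed. Ftl1 then turned to 0.40 (adjusted p = 0.239) and Trf was 0.51 (adjusted p = 0.00442). Sort over IgG passed for 7 of 8 members in the Sall1 line, where 78.2% of all genes passed (37.1% higher, 41.1% lower), and for 8 of 8 in the Cx3cr1 line, where 73.8% did (33.7% higher, 40.1% lower). Slc40a1 was higher in Sort by 5.67 ± 0.27 and 4.98 ± 0.28, Slc11a1 by 6.19 ± 0.23 and 5.71 ± 0.21 and Hmox1 by 3.76 ± 0.35 and 3.38 ± 0.29 in the Sall1 and Cx3cr1 lines. The largest adjusted p of these 6 was 3.86e-08, and without Sall1 IgG of mouse 9 that line's Hmox1 value was 4.39. Ftl1 rose by 0.47 ± 0.17 in Cx3cr1 titled Sort (adjusted p = 0.0224), a call lost without any 1 of the 4 Sort libraries (0.28 to 0.38) or without IgG of mouse 3 (0.38), and under 5 other settings (0.27 to 0.46). By description its rise was 1.27 (adjusted p = 1.85e-04), and that of Trf was 1.25 against 2.06 by title. In Sall1 Sort it rose by 1.76 (adjusted p = 2.63e-07). Fth1 gave 0.18 ± 0.14 (adjusted p = 0.262) in the Sall1 line and -1.17 ± 0.21 (adjusted p = 1.17e-04) in the Cx3cr1 line by title, but -0.06 (adjusted p = 0.826) by description, where 75.5% of all genes passed.

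The rest of the pathway was read from a list of 49 other iron and heme genes in the table. In Sall1 HA over IgG, 18 of 35 tested were higher and 8 lower (median 0.44), and in Cx3cr1 HA over IgG 10 of 30 were higher and 7 lower (median 0.02). Over all genes the shares were 35.2% higher and 36.1% lower (median -0.03) in the Sall1 line and 28.6% higher and 36% lower (median -0.28) in the Cx3cr1 line. Slc48a1, a heme transporter gene, rose in Sall1 HA by 1.87 ± 0.15 (adjusted p = 4.40e-09), as did Blvrb, a biliverdin reductase gene, by 2.13 ± 0.21 (adjusted p = 6.68e-08). Isca2, an iron-sulfur cluster assembly gene, rose in Sall1 HA by 1.81 ± 0.18 (adjusted p = 6.90e-08). Blvrb rose in Cx3cr1 HA too, by 3.02 ± 0.26 (adjusted p = 6.29e-08). Ireb2, which encodes iron regulatory protein 2, had 3 counts in all over Sall1 HA and 195 over Sall1 IgG. It was likewise near absent from Cx3cr1 HA, with 1 count against 304 over Cx3cr1 IgG. In Cx3cr1 HA, Hfe, whose product modulates iron sensing, rose by 4.47 ± 0.36 (adjusted p = 3.18e-08), and Slc46a1, a folate and heme transporter gene, by 3.48 ± 0.30 (adjusted p = 5.99e-08). The HA enrichment of Hfe and Slc46a1 was smaller in the Sall1 line by -3.02 ± 0.50 (adjusted p = 4.11e-05) and -2.03 ± 0.41 (adjusted p = 3.94e-04), as for Slc11a1. That of Slc48a1 was larger by 2.19 ± 0.24 (adjusted p = 1.37e-07). In all, 5 of 36 had a larger and 4 a smaller enrichment in the Sall1 line, against 18.5% and 13.7% of all genes.

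Ceruloplasmin needs copper, and 10 copper transport genes were read beside it, 9 of which were tested. In Sall1 HA over IgG 5 were higher and 1 lower, and in Cx3cr1 HA over IgG 4 were higher and 0 lower, with medians of 0.68 and 0.63. The shares and medians over all genes are those given for the iron list. Atox1, the chaperone that hands copper to the secretory pathway, rose by 2.26 ± 0.16 (adjusted p = 2.08e-09) and 3.22 ± 0.19 (adjusted p = 5.08e-10). Atp7a, a copper pump gene, was lower in Sall1 HA (-1.51 ± 0.49, adjusted p = 0.0108) and higher in Cx3cr1 HA (1.61 ± 0.37, adjusted p = 0.00143), and this difference passed as an interaction (-3.19 ± 0.65, adjusted p = 4.61e-04). Atp7b, the other copper pump gene, was at 0 in 7 of 8 groups. In Sall1 SortIP over Sort 0 of 9 copper genes passed and 3 of 32 iron and heme genes were higher and 2 lower, against 5.45% higher and 5.08% lower over all genes. Slc25a37, the mitoferrin 1 gene, fell by 1.20 ± 0.19 (adjusted p = 8.03e-04) with the ferritins, while Hmox2, the constitutive heme oxygenase gene, rose by 0.83 ± 0.17 (adjusted p = 0.00480) and Alas1, the first enzyme of heme synthesis, by 0.76 ± 0.17 (adjusted p = 0.00628). In the Cx3cr1 line by title these 3 genes passed with the opposite sign, at 0.78 ± 0.16 for Slc25a37, -0.64 ± 0.15 for Hmox2 and -0.66 ± 0.17 for Alas1. Between Sall1 Sort and Cx3cr1 titled Sort the median was 0.16 for iron and heme genes and 0.01 for copper genes, against 0.01 over all genes. Between Sall1 SortIP and Cx3cr1 titled SortIP it was -0.09 and 0.24, against -0.0072 over all genes.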

How the data were processed

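The deposited table holds whole-number counts of reads over exons per gene, which the authors did not normalize, for 24411 genes in 32 libraries, with gene length in bases and mm9 coordinates. The submitters' processing notes name the tools bcl2fastq, HOMER and HISAT 0.1.5 and the build mm9. The sources used here do not give how multiply mapped reads and strand were handled, so ferritin, which has processed pseudogene copies, and genes with antisense partners are uncertain. No unassigned value columns were present. Groups came from the sample titles; the 8 sorted Cx3cr1 libraries have descriptions that exchange Sort and SortIP, which was an alternative.

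CPM is the count per 1e6 gene counts. Each comparison was fitted with edgeR 4.0.16 in R 4.3.3 (robust quasi-likelihood fit on the compared groups, TMM scaling, low-count filter with minimum count 10), with Benjamini-Hochberg adjustment over all genes tested and calls at an adjusted p under 0.05. The fit was tested on simulated counts. HA enrichment between lines was an interaction over the 16 homogenate libraries. No p is given for comparisons of sorted cells between lines or for Cp in comparisons with sorted libraries, since these values chose the genes. A count of 0 allows up to 3 counts, and such bounds cover counting error only. Reads were not separated by molecular identifiers. The 48 pairs of libraries within groups differed by more than counting error, with chi-square over degrees of freedom from 1.58 to 22.5.

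Per the series' design, libraries of one line that share a number are from 1 brain, so the mouse is a block in an alternative fit. Deviations from group means correlated between libraries of a mouse with r from -0.11 to 0.23 (median 0.04, 11 of 48 pairs over 0.1, 12142 genes).

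Alternatives were no scaling, median-ratio size factors, DESeq2 1.42.0, no low-count filter, all 8 groups in one fit, the block, an offset for transcript length (lowess per library, span 0.3) and leaving out each library. The members and lists were chosen with earlier results of these data known. Named iron, heme and copper genes are the 3 called genes of smallest p in each direction and list, of which some are given. The likest genes are the 4 with the highest Pearson r to a member.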

Additional observations from a re-analysis of the deposited data

Results flagged for a closer look

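In groups of 4, a library was picked out when its gap to the nearest other library exceeded Dixon's 95% critical value as a share of the group's range. Chance picks about 1 in 20 groups, and 4 of 80 were picked. Fth1 was low in Sall1 HA of mouse 17, at 1594 CPM, and Trf was high in Cx3cr1 titled Sort of mouse 4, at 1907 CPM. Tfrc was at 6.96 CPM in Cx3cr1 HA of mouse 1 and at 0 in the other mice, on 4 counts. Ftl1 per Fth1 count was low in Sall1 HA of mouse 21, at 0.123.

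HA enrichment over IgG differed between the lines for Slc40a1 (log2 difference -3.98, Sall1 minus Cx3cr1) and Slc11a1 (-3.43), each by the interaction term of edgeR's quasi-likelihood test. Slc40a1 rests on 7 counts in Sall1 HA and met the count filter only because of Cx3cr1 HA. For 3 of the member genes all 4 mice of each line moved in opposite directions between SortIP and Sort by title. The share of all genes that did so was not computed, so this count is not set against a background. The split was not particular to members, since Slc25a37, Hmox2 and Alas1 also passed with opposite signs in the lines by title. The mean differences of log2 SortIP minus Sort, Sall1 minus Cx3cr1, were -2.88 for Fth1, -2.13 for Ftl1 and -1.04 for Slc40a1. These differences were not tested, and with the sorted Cx3cr1 libraries named by description all 4 mice of both lines moved the same way.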

How the results depend on the processing

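Of 744 values with 1 library left out, 724 kept their direction and side of the threshold, and of 600 values under the other alternatives 560 did. With the length offset and replicate block, 8 members passed in Sall1 HA over IgG (main 5) and 4 in the difference of HA enrichment (main 2), and Ftl1 in Sall1 HA over IgG reversed to -0.97. Without the low-count filter 7 passed in Cx3cr1 HA over SortIP (main 4). Leaving out 1 library gave 3 to 5 members in Sall1 HA over Cx3cr1 HA. For these counts the share of all genes that passed under the same setting was not computed, so they are not set against a background. By description, Fth1 reversed to 0.91 in Cx3cr1 HA over SortIP. In Cx3cr1 SortIP over Sort, Fth1, Ftl1 and Trf reversed to -1.27, -0.97 and 0.63. Between lines by description, Trf in Sort was 0.27, and in SortIP Fth1 was 0.067, Ftl1 0.12, Slc11a1 -0.056 and Trf -0.10. For sums of both sorted libraries of a mouse, Slc40a1 was -0.0057 and Trf 0.074. Over homogenate alone, r of Adgrg5 with Cp was -0.066. The cause was not tested. The replicate block alone changed 2 of 70 values, Fth1 (-0.39) and Ftl1 (-0.68) in Cx3cr1 HA over SortIP, and no other call. Without scaling the median of all genes moved to -0.44 in Sall1 HA over IgG (main -0.03) and to -0.68 in Cx3cr1 HA over IgG (main -0.28), and Fth1 in the Sall1 line gave -0.45 (adjusted p = 0.00588), near that shift. Depth limits Cp, Tfrc and Slc40a1 in HA, where groups hold 4 to 23 counts.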
